A study of Mus musculus with 10 samples.

Results

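The 10 genes described here encode the machinery that decides whether a cell leaves the G1 phase of the cell cycle. They were chosen by name, out of 20270 genes measured, in hematopoietic stem cells (HSCs), the rare marrow cells that renew the blood. The 4 inhibitors of cyclin-dependent kinases (CDKs) are Cdkn1a (p21), Cdkn1b (p27), Cdkn2c (p18) and Cdkn2d (p19). The D-type cyclins are Ccnd1, Ccnd2 and Ccnd3, their kinase partners are Cdk4 and Cdk6, and Rb1 encodes the pocket protein that these kinases phosphorylate. All 10 genes passed the filter on low values. RNA was sequenced from 10 libraries of C57BL/6 HSCs in 4 groups. Stressed HSCs gave 2 KO and 2 WT libraries, and normal HSCs gave 3 KO and 3 WT libraries. The KO libraries are labelled Id1-/- and the WT libraries Id1+/+, and in both genotypes the sorted cells came from recipients of lineage-negative donor marrow. The sample labels give 4 weeks after transplantation for all groups, whereas the series description gives another time. What separates the normal from the stressed condition is not defined there, nor is the recipients' genotype or the animals' age. Nothing states whether libraries came from separate animals, so p-values reflect only library-to-library spread, which may be technical.

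In G1, growth signals raise D-type cyclins, which activate CDK4 and CDK6. These kinases phosphorylate RB1, which releases E2F transcription factors and lets S phase genes be transcribed. The INK4 inhibitors p18 and p19 bind CDK4 and CDK6 themselves, while the CIP/KIP inhibitors p21 and p27 bind cyclin and kinase complexes and restrain CDK2. Adult HSCs are mostly quiescent, and mouse studies have tied p18, p21, p27, p57 and CDK6 to how HSCs stay in or leave that state. ID1, the product of the targeted gene, has no DNA-binding region of its own and blocks E proteins, which bind the E-box motif CANNTG.

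CPM is the read count scaled to a common library total, here after quantile normalization, which gives all libraries the same set of values. Estimated from low values, depth was 25700000 to 33000000 reads per library, so 1 CPM corresponds to 25.7 to 33.0 reads. This scale holds for low levels and is not a measured library total. Id1 itself stood at 8.44 to 13.2 CPM in the 5 KO-labelled libraries and at 1.28 to 4.38 CPM in the 5 WT-labelled libraries. It was thus higher in the libraries labelled knockout, and which part of the gene its reads cover was not analysed here, so each direction of KO against WT below follows the labels. All 11 HSC markers were measured, none at 0 reads, and summed to 3540 to 3650 CPM in KO stressed, 3840 to 3930 in WT stressed, 4170 to 4440 in KO normal and 4840 to 5160 CPM in WT normal libraries. On a principal component with 12.5% of the variance over all genes tested, KO normal library A scored 100 and the other libraries -31.3 to 12.9. WT stressed library A scored -83.0 on the component with 13.1%, where the others spanned -20.3 to 60.8, and WT stressed library B scored 94.0 on the component with 11.8%, where the others spanned -48.7 to 4.29.

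The G1 genes differed widely in level when expressed per kilobase of exon. As a mean of the 10 libraries, Cdk4 led with 160.1 CPM per kb, followed by Ccnd2 with 51.8, Ccnd3 with 38.4, Cdkn2d with 36.4 and Cdk6 with 20.9 CPM per kb. Ccnd3 and Cdkn2d overlapped, with Ccnd3 above Cdkn2d in 7 of 10 libraries, while the other neighbours in this upper part of the order did not overlap. Below them came Cdkn2c with 7.01, Rb1 with 6.75, Ccnd1 with 6.23 and Cdkn1b with 5.0 CPM per kb, and each of these overlapped its neighbour in the order. Cdkn1a, at 0.745 CPM per kb, was the lowest in every library. Among the inhibitors of this set the most abundant transcript was that of Cdkn2d, and among the D-type cyclins that of Ccnd2. Among the 20270 genes in the table, the mean log2 CPM of Cdk4, Ccnd2, Ccnd3 and Cdk6 lay above 97.5% to 99.2% of genes, and that of Cdkn1a above 41.5%. The coefficient of variation over all libraries was lowest for Ccnd3 (3.36%) and highest for Cdkn2c (40.8%) and Cdkn1a (39.1%).

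**Figure D1:**
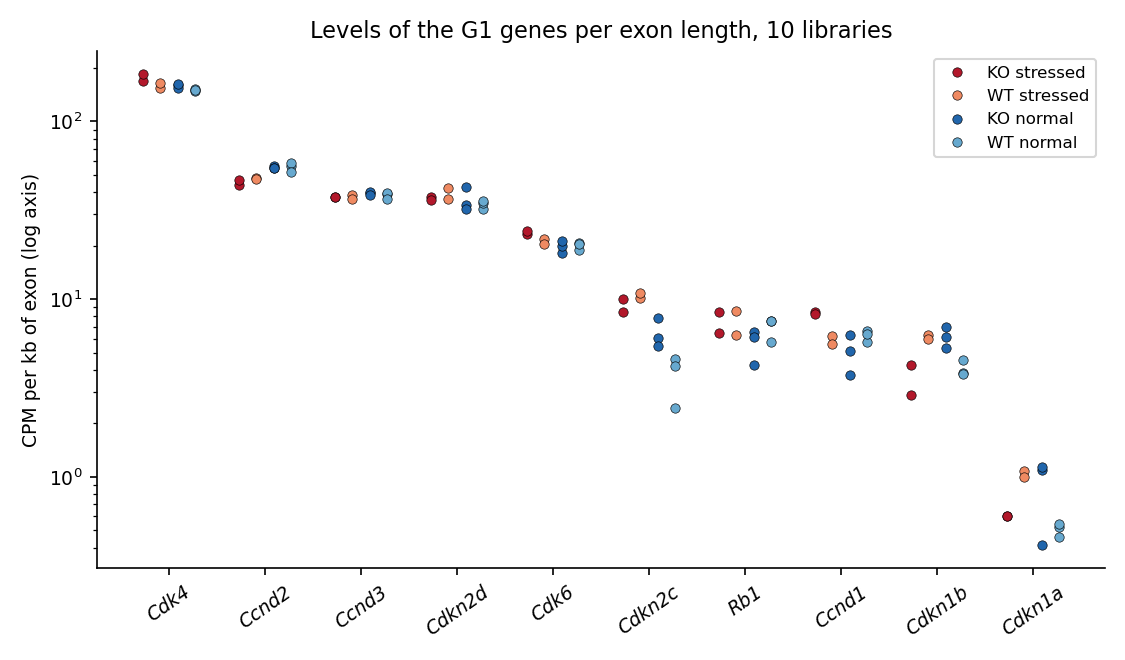
Level of each G1 gene per kilobase of exon (log axis), with a point for each of the 10 libraries, coloured by group and ordered by the mean. Cdk4 averaged 160.1 CPM per kb and Cdkn1a 0.745, and the points of Cdkn2c, Rb1, Ccnd1 and Cdkn1b share a range.

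Between conditions, stressed HSCs had less Ccnd2 transcript, and more Cdkn2c transcript, on average over the genotypes. Cdkn1b fell in KO HSCs and stood higher, without passing the test, in WT HSCs. In KO HSCs, 2 of 10 G1 genes passed the test for stressed against normal, Cdkn1b and Ccnd2, both lower, where 4.5% of all genes tested were called at a limma adjusted p under 0.05. In WT HSCs, 1 of 10 passed, Cdkn2c, which was higher, where 3.3% of all genes were called. Averaged over both genotypes, 2 of 10 passed, Cdkn2c (higher) and Ccnd2 (lower), where 8.29% of all genes were called. These shares rest on 1 or 2 genes each. The median log2 difference of the 10 genes was 0.09 in KO, 0.09 in WT and 0.15 averaged over genotypes, where the median over all genes was 0.00, 0.01 and 0.00.

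Between genotypes, no G1 gene was called by limma. In normal HSCs, 0 of 10 passed for KO against WT, where 1.56% of all genes were called, and 2 had an unadjusted p under 0.05. In stressed HSCs, 0 of 10 passed, where 0.145% of all genes were called, and 3 had an unadjusted p under 0.05. Averaged over both conditions, 0 of 10 passed, where 1.07% of all genes were called, and 1 had an unadjusted p under 0.05. For the difference of the stress change between KO and WT HSCs (the interaction), 0 of 10 passed, where 0.0198% of all genes were called, and 3 had an unadjusted p under 0.05. No other test was run, since the deposited values are not counts.

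Separation of the libraries was common among all genes in these small groups. KO and WT libraries did not overlap in 3 of 10 G1 genes in normal HSCs, against 19.5% of all genes, and in 7 of 10 in stressed HSCs, against 39.1% of all genes. Stressed and normal libraries did not overlap in 7 of 10 G1 genes in KO HSCs, against 33.1% of all genes, and in 6 of 10 in WT HSCs, against 36.4% of all genes. In 1 of the 10, Cdkn1b, the stressed libraries were clear of the normal ones in both genotypes but in opposite directions, as in 416 of all genes tested (2.75%).

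**Figure D2:**
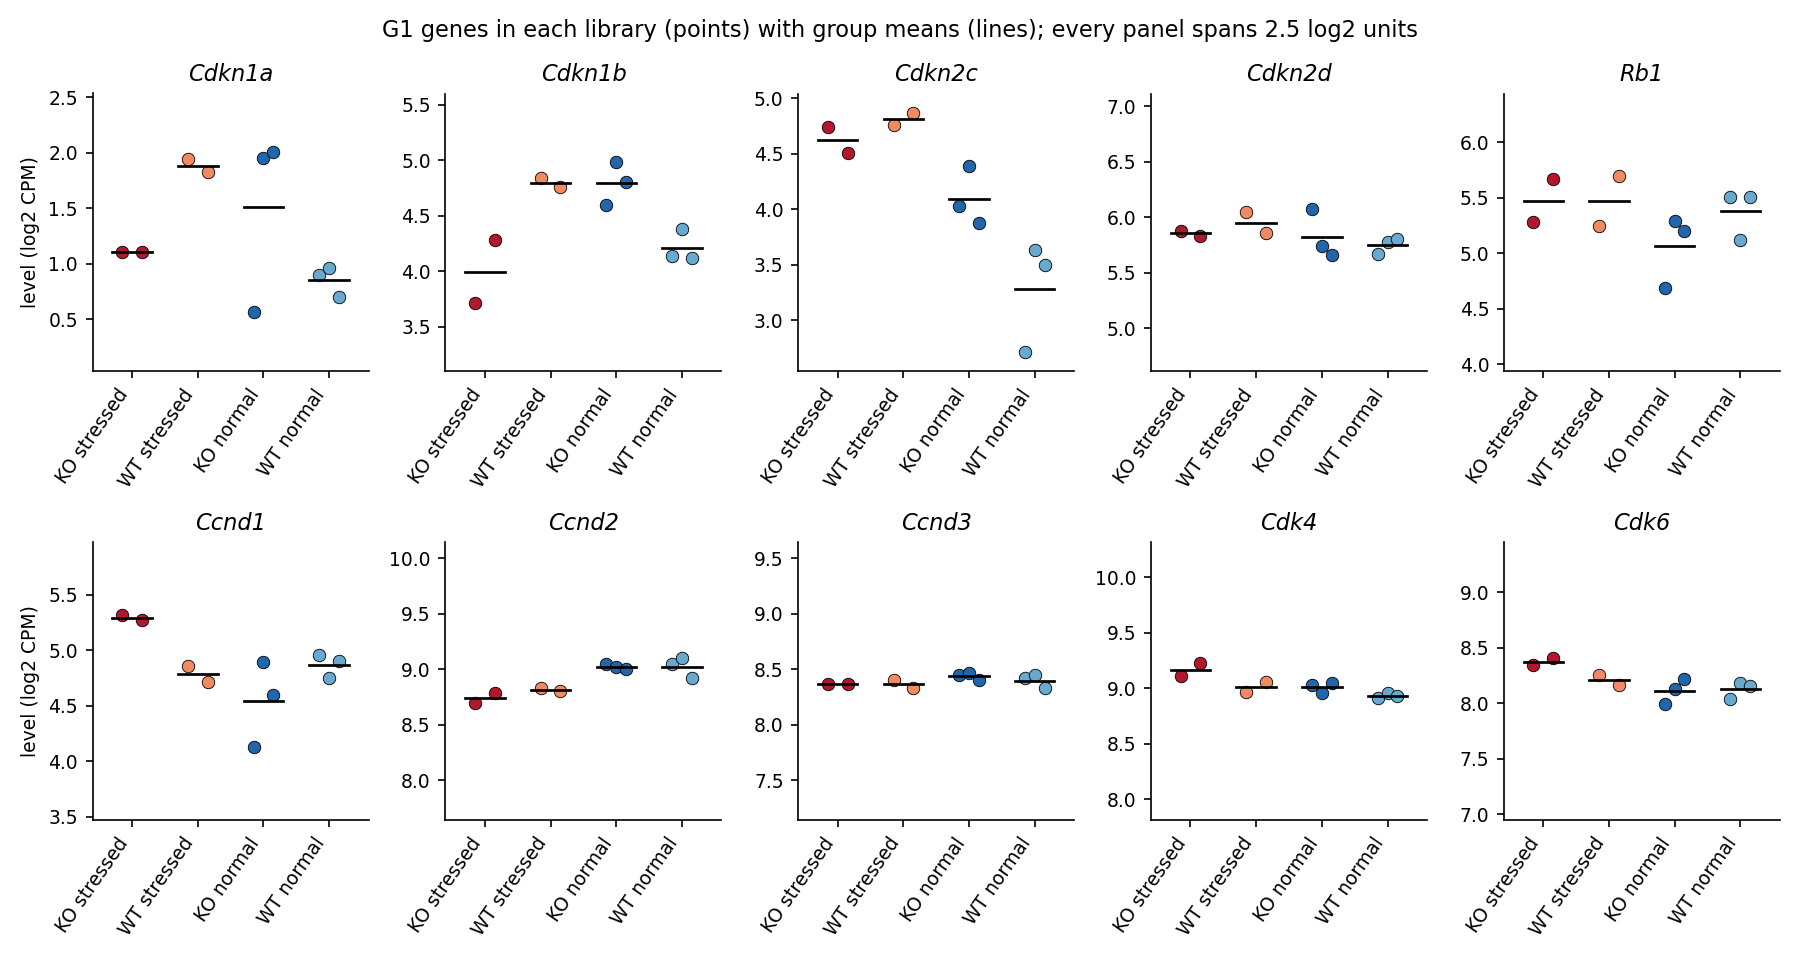
Deposited log2 CPM of each G1 gene in every library (points) with the group mean (line), for KO stressed, WT stressed, KO normal and WT normal HSCs, each panel spanning the same 2.5 log2 units. Cdkn1b stands at 3.71 and 4.28 in KO stressed libraries and at 4.59 to 4.99 in KO normal libraries, while WT stressed libraries, at 4.76 and 4.84, stand above WT normal libraries, at 4.11 to 4.38.

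Cdkn1b (ENSMUSG00000003031.14, mm10 chromosome 6, 134920401 to 134925513, plus strand) encodes p27, the inhibitor that accumulates in resting cells and is degraded as they enter S phase. The 250 bases before its RefSeq start (GRCm38.p6, chr6:134920151-134920400, plus strand) are shown beside those of Cdkn1a, another CIP/KIP gene, because KO normal and WT stressed HSCs had the highest group means of both. Cdkn1a has 2 such windows, chr17:29090729-29090978 and chr17:29093519-29093768, both on the plus strand. Sequences run 5′ to 3′ on the strand of the gene, in lower case with any E-box (CANNTG) in capitals.
Cdkn1b: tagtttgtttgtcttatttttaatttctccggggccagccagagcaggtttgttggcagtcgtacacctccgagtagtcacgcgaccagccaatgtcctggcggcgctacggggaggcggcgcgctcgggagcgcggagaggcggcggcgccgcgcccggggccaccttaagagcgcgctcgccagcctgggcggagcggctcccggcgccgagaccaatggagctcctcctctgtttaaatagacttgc
Cdkn1a, upstream start: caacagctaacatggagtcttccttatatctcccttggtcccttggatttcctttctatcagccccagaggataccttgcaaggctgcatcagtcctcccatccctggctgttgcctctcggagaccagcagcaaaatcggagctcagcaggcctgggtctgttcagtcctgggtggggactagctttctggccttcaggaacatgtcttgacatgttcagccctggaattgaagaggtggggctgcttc
Cdkn1a, downstream start: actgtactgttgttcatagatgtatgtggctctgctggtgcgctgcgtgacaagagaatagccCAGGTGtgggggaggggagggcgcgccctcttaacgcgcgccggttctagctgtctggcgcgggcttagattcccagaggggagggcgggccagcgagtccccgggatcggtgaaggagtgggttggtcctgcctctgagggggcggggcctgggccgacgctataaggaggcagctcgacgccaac
The Cdkn1b window and the upstream Cdkn1a window held no CANNTG, and the downstream Cdkn1a window held 1, of the form CAGGTG, whose first base lay 187 bases before the start. Among 32851 mouse windows of this length, 66.2% held CANNTG and 17.2% held CAGGTG on either strand.

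Cdkn1b had 13.1 and 19.4 CPM in KO stressed libraries, against 24.1, 31.7 and 27.9 CPM in KO normal libraries. Both KO stressed libraries were below every KO normal library, with library A the lower of them. The log2 difference was -0.80 (SE 0.20, 95% interval -1.24 to -0.36), a fall of 42.5%, and passed the test at a limma adjusted p of 0.048. In WT HSCs it had 28.6 and 27.04 CPM in stressed libraries, against 17.5, 20.8 and 17.3 CPM in normal libraries. Here both stressed libraries were above every normal library, with a log2 difference of 0.59 (SE 0.20, 95% interval 0.15 to 1.03) that did not pass (limma adjusted p = 0.15). It was 0.55 without WT stressed library A (adjusted p = 0.42) and 0.63 without library B (0.30). In these bulk libraries, fewer cells with a transcript and less of it per cell cannot be told apart.

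The call of Cdkn1b in KO HSCs sat close to the threshold and was lost in 12 of 20 alternative analyses, with the same sign in all 20. Without KO stressed library A the difference was -0.52 (limma adjusted p = 0.33), and without KO stressed library B it was -1.08 (adjusted p = 0.043). It was also lost without KO normal library B (adjusted p = 0.12) or C (0.11), and without any single WT library (0.065 to 0.072), where only the shared estimate of the spread changed.

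Seen between genotypes, Cdkn1b stood in reverse order in the 2 conditions. In normal HSCs the 3 KO libraries were above the 3 WT libraries, by 0.59 on the log2 scale (SE 0.18) at a limma adjusted p of 0.16. In stressed HSCs both KO libraries were below both WT libraries, with a log2 difference of -0.80 (SE 0.22, limma adjusted p = 0.31). That difference was -0.52 without KO stressed library A (adjusted p = 0.64) and -1.085 without library B (0.24). The interaction was -1.39 (SE 0.28, 95% interval -2.01 to -0.76) with an unadjusted p of 0.00046, rank 38 of 15143 genes, and did not pass after adjustment (limma adjusted p = 0.18). It was -1.11 without KO stressed library A (adjusted p = 0.34) and -1.67 without library B (0.20). KO normal (27.9 ± 3.8 CPM, SD, n = 3) and WT stressed HSCs (27.8 ± 1.1 CPM, SD, n = 2) stood level, as did KO stressed (16.3 ± 4.4 CPM, SD, n = 2) and WT normal HSCs (18.6 ± 2.0 CPM, SD, n = 3) within their spread.

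Cdkn1a (ENSMUSG00000023067.13, mm10 chromosome 17, 29090976 to 29100727, plus strand) encodes p21, the CDK inhibitor that p53 induces after DNA damage. It had 2.15 and 2.15 CPM in KO stressed libraries, against 1.48, 3.88 and 4.02 CPM in KO normal libraries. KO normal library A was the lowest of all 10 libraries and its group mates the highest, so the stressed pair lay inside the range of the normal group. In WT HSCs it had 3.84 and 3.54 CPM in stressed libraries, against 1.86, 1.94 and 1.62 CPM in normal libraries, and these groups did not overlap. The log2 difference of stressed against normal was -0.40 (SE 0.48, limma adjusted p = 0.74) in KO and 1.03 (SE 0.48, adjusted p = 0.31) in WT HSCs, with an interaction of -1.43 (SE 0.68, adjusted p = 0.55). With about 45.8 to 132 reads per library, Cdkn1a was the least precisely measured of the 10 genes.

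KO normal library A set much of the spread of Cdkn1a. With it, KO normal exceeded WT normal by 0.66 on the log2 scale (SE 0.43, limma adjusted p = 0.55), and without it by 1.13 (adjusted p = 0.23). Without library A the stress difference in KO HSCs was -0.88 (adjusted p = 0.28) and the interaction -1.91 (0.32), whereas without KO normal library B or C the stress difference was -0.18 or -0.15. In WT HSCs the stress difference was 0.97 without WT stressed library A (adjusted p = 0.57) and 1.09 without library B (0.47). None of these values passed the test. A gene without a name in the annotation overlaps Cdkn1a on the opposite strand, and whether reads were counted by strand is not given in the sources used here.

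Cdkn2c (ENSMUSG00000028551.14, mm10 chromosome 4, 109660876 to 109667189, minus strand) encodes p18, an INK4 inhibitor of CDK4 and CDK6 whose loss in mice expands the HSC pool. It carries the largest fold change called among the 10 genes, so the window before its downstream RefSeq start (GRCm38.p6, chr4:109665373-109665622, minus strand) is shown, with 13 of its 250 bases in an annotated exon.
Cdkn2c, downstream start: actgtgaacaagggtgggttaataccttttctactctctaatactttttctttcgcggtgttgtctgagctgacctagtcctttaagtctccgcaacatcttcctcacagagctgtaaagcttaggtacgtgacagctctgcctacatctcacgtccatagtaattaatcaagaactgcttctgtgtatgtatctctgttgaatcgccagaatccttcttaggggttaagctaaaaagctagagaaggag
It held no CANNTG, nor did the window before the upstream start of the gene.

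Cdkn2c had 27.1 and 29.3 CPM in WT stressed libraries, against 6.58, 12.45 and 11.3 CPM in WT normal libraries. Both stressed libraries were more than every normal library, and WT normal library A was the lowest of all 10. The log2 difference was 1.53 (SE 0.27, 95% interval 0.94 to 2.12), a 2.89-fold higher level, and passed the test (limma adjusted p = 0.011). In KO HSCs it had 26.8 and 22.8 CPM in stressed libraries, against 16.35, 20.9 and 14.7 CPM in normal libraries. These groups did not overlap either, but the log2 difference of 0.53 (SE 0.27, 95% interval -0.07 to 1.12) did not pass (limma adjusted p = 0.34).

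The 4 stressed libraries of both genotypes thus spanned 22.8 to 29.3 CPM of Cdkn2c, while the normal groups stood apart from each other. All 3 KO normal libraries were above all 3 WT normal libraries, by 0.81 on the log2 scale (SE 0.24) at a limma adjusted p of 0.15. KO stressed minus WT stressed was -0.19 (SE 0.30, limma adjusted p = 0.90). The interaction was -1.003 (SE 0.38) and did not pass (limma adjusted p = 0.47), so the rise was not shown to differ between genotypes. Averaged over both genotypes it was 1.03 (SE 0.19, limma adjusted p = 0.0066), and this call held in all 19 alternatives. The call in WT HSCs was lost without WT stressed library A (1.59, adjusted p = 0.058) or B (1.47, adjusted p = 0.070), each of which leaves a single stressed library.

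Cdkn2d (ENSMUSG00000096472.2, mm10 chromosome 9, 21288410 to 21291407, minus strand) encodes p19, the other INK4 inhibitor measured and the most abundant of the 4 per exon length. It had 58.8 and 57.0 CPM in KO stressed, 66.2 and 57.9 in WT stressed, 67.2, 53.5 and 50.5 in KO normal, and 50.7, 54.7 and 55.8 CPM in WT normal libraries. Stressed and normal libraries overlapped in KO HSCs and were only just apart in WT HSCs. The log2 difference between conditions was 0.03 in KO (95% interval -0.27 to 0.33) and 0.20 in WT HSCs (95% interval -0.10 to 0.50), with limma adjusted p of 0.94 and 0.49.

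**Figure D3:**
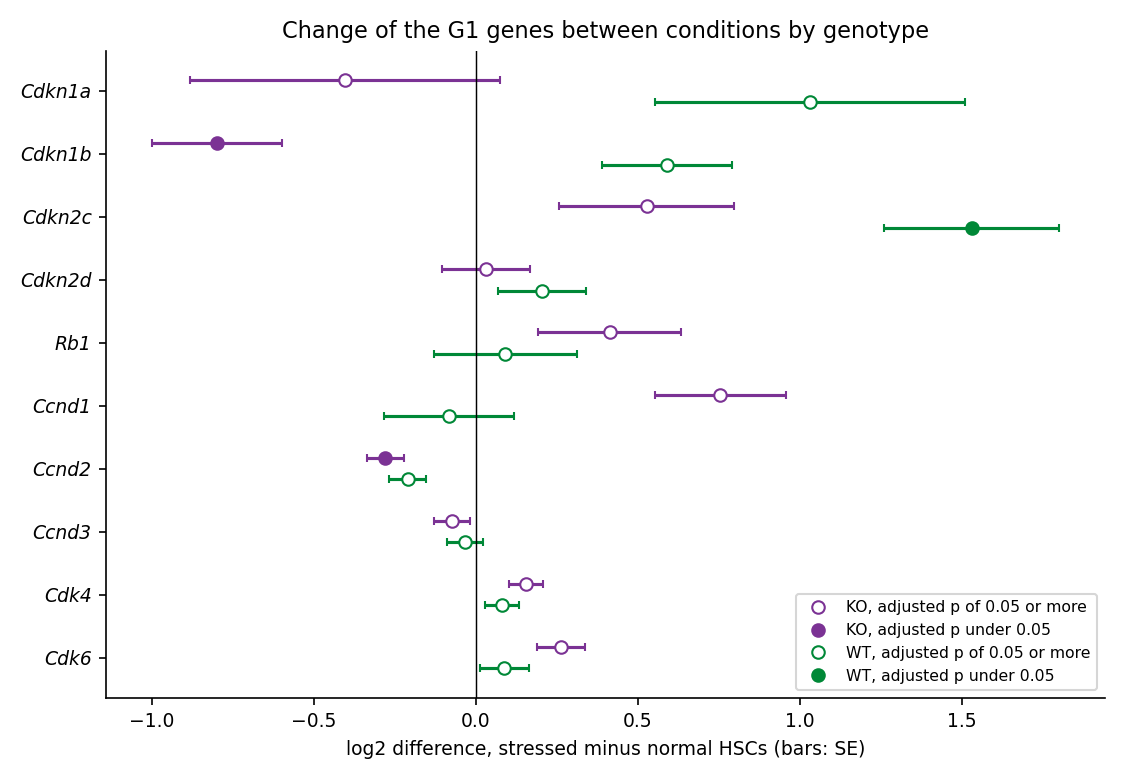
Log2 difference of stressed minus normal HSCs for each G1 gene in KO (purple) and WT (green) HSCs, with the SE from limma as bars and filled points for an adjusted p under 0.05. Cdkn1b lies at -0.80 in KO and 0.59 in WT, Cdkn2c at 0.53 and 1.53, and Ccnd2 left of 0 in both, at -0.28 and -0.21.

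Ccnd2 (ENSMUSG00000000184.12, mm10 chromosome 6, 127125162 to 127152193, minus strand) encodes cyclin D2, the D-type cyclin with the most transcript per exon length in these HSCs. It had 413 and 442 CPM in KO stressed libraries, against 527, 518 and 512 CPM in KO normal libraries. In WT HSCs it had 454 and 446 CPM in stressed libraries, against 527, 549 and 486 CPM in normal libraries. All 4 stressed libraries were below all 6 normal libraries. The log2 difference was -0.28 (SE 0.057, a fall of 17.6%, limma adjusted p = 0.017) in KO HSCs and -0.21 (SE 0.057, 13.5% lower, adjusted p = 0.079) in WT HSCs. Averaged over genotypes Ccnd2 fell by 0.24 (SE 0.040, limma adjusted p = 0.0033), and the interaction was -0.07 (95% interval -0.25 to 0.11). The KO call was lost without KO stressed library A (-0.23, adjusted p = 0.17) or B (-0.33, adjusted p = 0.059). Both predicted genes on the opposite strand within Ccnd2 could share its reads.

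Ccnd1 (ENSMUSG00000070348.5, mm10 chromosome 7, 144929931 to 144939925, minus strand) encodes cyclin D1, the D-type cyclin most directly raised by growth factor signals through ERK. It had 40.0 and 38.6 CPM in KO stressed libraries, against 17.55, 29.8 and 24.2 CPM in KO normal libraries. Both KO stressed libraries were above every other library of the study, and KO normal library A was the lowest of all. In WT HSCs it had 29.1 and 26.2 CPM in stressed libraries, against 31.0, 26.9 and 29.9 CPM in normal libraries, and these overlapped. The log2 difference between conditions was 0.75 (SE 0.20, 95% interval 0.31 to 1.20) in KO HSCs, just outside the threshold (limma adjusted p = 0.061), and -0.08 (SE 0.20, adjusted p = 0.88) in WT HSCs.

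KO normal library A bears on that difference of Ccnd1, which was 0.55 without it (limma adjusted p = 0.10). Without KO normal library B it was 0.93 and passed (adjusted p = 0.023). The interaction was 0.84 (SE 0.28, limma adjusted p = 0.41) with all libraries and 0.63 without library A. KO stressed exceeded WT stressed HSCs by 0.51 (SE 0.22, limma adjusted p = 0.53), and KO normal minus WT normal was -0.33 (SE 0.18, adjusted p = 0.46). The last of these was -0.12 without KO normal library A (limma adjusted p = 0.81) and -0.51 without library B (0.18).

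Ccnd3 (ENSMUSG00000034165.16, mm10 chromosome 17, 47505051 to 47599691, plus strand) encodes cyclin D3, which in mice is needed for the expansion of lymphoid progenitors. It was the steadiest of the 10 genes, with 329.6 CPM in both KO stressed libraries, 338 and 322 in WT stressed, 349, 353 and 338 in KO normal, and 343, 348 and 321.5 CPM in WT normal libraries. Only the KO groups were apart, stressed below normal. The log2 difference between conditions was -0.07 in KO (95% interval -0.20 to 0.05) and -0.03 in WT HSCs (95% interval -0.16 to 0.09), with limma adjusted p of 0.56 and 0.82. Quantile normalization, which the deposited values had undergone, can make the spread of abundant genes such as this appear smaller than it is.

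Cdk4 (ENSMUSG00000006728.12, mm10 chromosome 10, 127063534 to 127067920, plus strand) encodes the kinase partner of the D-type cyclins with the highest level here. Its window (chr10:127063285-127063534, plus strand, GRCm38.p6) is shown because it held the most E-boxes, in capitals, of the 10 windows found for these genes.
Cdk4: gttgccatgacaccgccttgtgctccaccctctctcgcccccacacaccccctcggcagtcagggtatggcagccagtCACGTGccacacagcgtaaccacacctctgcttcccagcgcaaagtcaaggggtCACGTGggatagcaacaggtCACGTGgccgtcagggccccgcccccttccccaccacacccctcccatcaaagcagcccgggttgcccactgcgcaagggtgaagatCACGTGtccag
All 4 matches were CACGTG, the form that MYC and MAX bind, starting 172, 118, 98 and 11 bases before the start. CACGTG occurred in 6.02% of all windows of this length and in 2 of the 10 member windows, the other being that of Cdk6, with 1 match 220 bases before the start. Promoter windows were found for 7 of the 10 genes, and sequences for Ccnd1, Ccnd2 and Rb1 were not analysed here. Of the other motifs searched on both strands, CAGCTG (13.0% of all windows), TTTGGCGC (0.417%) and TTTCGCGC (0.256%) were in no member window, and GTAAACA (3.17%) was in 1, before the upstream start of Ccnd3.

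Cdk4 had 552 and 598 CPM in KO stressed, 501 and 534 in WT stressed, 522, 499 and 529 in KO normal, and 482, 496.5 and 489.5 CPM in WT normal libraries. In each genotype the stressed libraries were above the normal ones, and in each condition the KO libraries were above the WT ones, although KO stressed library A and WT stressed library B were not far apart. The largest of these differences were small, 0.15 for stressed against normal in KO HSCs (SE 0.052, limma adjusted p = 0.14) and 0.15 for KO against WT in stressed HSCs (SE 0.057, adjusted p = 0.47). Averaged, they were 0.12 between conditions (SE 0.037, limma adjusted p = 0.079) and 0.11 between genotypes (SE 0.037, adjusted p = 0.21). Tspan31 overlaps Cdk4 on the opposite strand and could share reads with it.

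Cdk6 (ENSMUSG00000040274.11, mm10 chromosome 5, 3341485 to 3531008, plus strand) encodes the other partner of the D-type cyclins, whose level sets how readily human HSCs leave quiescence. It had 324 and 339.6 CPM in KO stressed libraries, against 255, 279 and 297.5 CPM in KO normal libraries. In WT HSCs it had 306 and 287 CPM in stressed libraries, against 263, 290.1 and 284 CPM in normal libraries. The KO groups were apart and the WT groups overlapped. The log2 difference between conditions was 0.26 (SE 0.075, limma adjusted p = 0.080) in KO, 0.09 (SE 0.075, adjusted p = 0.61) in WT HSCs and 0.18 (SE 0.053, adjusted p = 0.070) on average, none of which passed.

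Rb1 (ENSMUSG00000022105.6, mm10 chromosome 14, 73183673 to 73325822, minus strand) encodes the pocket protein that holds E2F factors inactive until CDKs phosphorylate it. It had 38.9 and 50.7 CPM in KO stressed, 37.8 and 51.6 in WT stressed, 25.7, 39.1 and 36.8 in KO normal, and 45.4, 34.6 and 45.5 CPM in WT normal libraries. KO normal library A was the lowest, and the groups overlapped in all 4 pairwise comparisons. The log2 difference between conditions was 0.41 in KO HSCs (95% interval -0.07 to 0.90, limma adjusted p = 0.36), 0.23 without KO normal library A, 0.22 without KO stressed library B, and 0.09 in WT HSCs (95% interval -0.39 to 0.58, adjusted p = 0.88). Lpar6 and Rcbtb2 overlap Rb1 on the opposite strand, and their reads may be counted with it.

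Expressed as shares of the transcripts of a family per exon length, the make-up of the inhibitors and D-type cyclins can be set side by side, as description only. Cdkn2c made up 19.6% and 17.1% of the summed inhibitor transcripts in KO stressed and 16.97% and 19.95% in WT stressed libraries. Its share was 11.2%, 15.6% and 12.2% in KO normal and 6.27%, 10.4% and 9.60% in WT normal libraries. Every stressed library thus had a larger Cdkn2c share than every normal library. Cdkn1b made up 5.67% and 8.60% in KO stressed libraries and 8.66% to 13.98% in the other 8 libraries. Cdkn2d made up most of the sum in every library, from 67.35% to 82.5%. The summed level of these 4 inhibitors was lowest in WT normal HSCs, at 39.1 to 44.5 CPM per kb. It was highest in WT stressed HSCs, at 59.5 and 54.6 CPM per kb. Cdkn1c, the gene of p57, is not part of this sum or of the shares. It had 13.5 to 16.4 CPM in stressed and 25.1 to 33.4 CPM in normal libraries, so the sum is not the total inhibitor level.

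Among the D-type cyclins, Ccnd2 made up 48.8% and 50.7% of the summed transcripts in KO stressed, 51.9% and 52.9% in WT stressed, 54.15% to 56.3% in KO normal and 54.6% to 56.2% in WT normal libraries. Ccnd1 made up 9.43% and 8.84% in KO stressed libraries and 3.74% to 6.72% in the other 8 libraries. The summed level was 89.6 to 92.9 CPM per kb in the 4 stressed libraries and 94.65 to 104 CPM per kb in the 6 normal libraries, without overlap. Cdk4 exceeded Cdk6 by 7.06 to 8.81 times per exon length in all libraries.

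**Figure D4:**
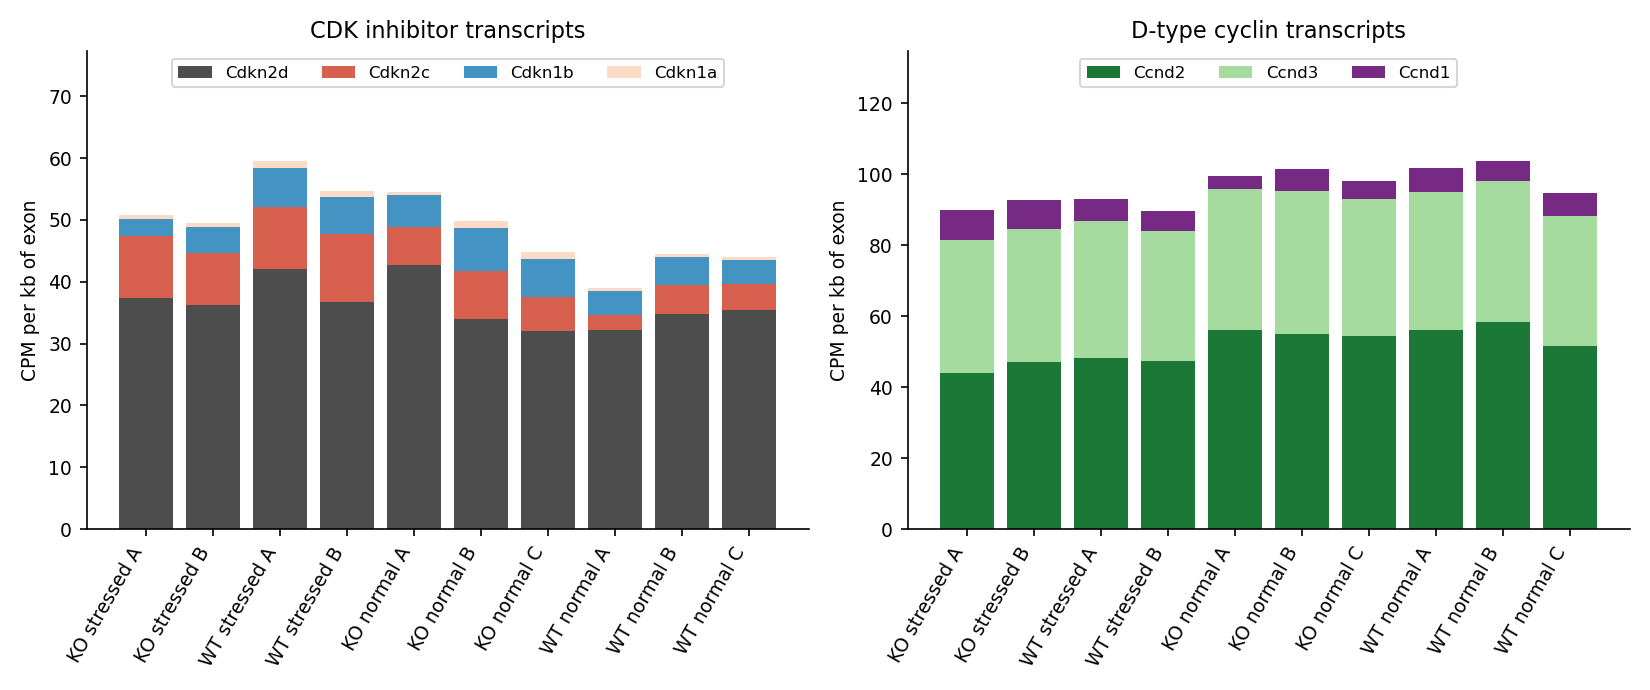
Summed transcripts per kilobase of exon in each library, stacked by gene, for 4 CDK inhibitors without Cdkn1c (left) and the D-type cyclins (right). Cdkn2d fills most of each inhibitor bar, the Cdkn2c segment is larger in the 4 stressed libraries than in the 6 normal ones, and the Ccnd1 segment is largest in the KO stressed libraries, at 9.43% and 8.84% of the bar.

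The genes whose log2 values ran most like those of each G1 gene over the 10 libraries are named as description. They are the extremes of all genes tested apart from predicted genes named Gm or Rik, which were left out. The libraries also fall into groups and differ in estimated depth. For the inhibitors these were Rbbp8 for Cdkn2c (Pearson r = 0.951), Aatk for Cdkn1a (0.933), Vps13a for Cdkn2d (0.928) and Sirt4 for Cdkn1b (0.904). Fbxo4, an F-box protein described in mouse cells as acting on cyclin D1, was second for Cdkn1a (0.903). For the cyclins they were Serpinh1 for Ccnd2 (0.969), Zfp182 for Ccnd3 (0.962) and Foxn2 for Ccnd1 (0.939). For the kinases and Rb1 they were Letm1 for Cdk6 (0.962), Mtss1 for Cdk4 (0.959) and Siglecg for Rb1 (0.930). Tfdp1, the dimer partner of E2F factors, was the third for Cdk6 (0.931). Fbxo4 and Tfdp1 were picked from the lower ranks for what they do. Other genes there include Gimap4, second for Cdk6 (0.952), and Rps6-ps4, second for Cdkn2c (0.948).

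The rest of the G1 and S phase machinery was followed in lists chosen with earlier results of these data known. Among genes that act after the G1 genes, the cyclin genes Ccna2, Ccnb1 and Ccnb2 and their kinase Cdk1 were higher in stressed HSCs. Of 10 other cyclins, CDKs and CDK-activating kinase subunits, 4 rose and none fell in KO HSCs, and 4 rose and none fell in WT HSCs, in both cases these 4 genes, where 4.5% and 3.3% of all genes were called. The WT count was 2 without WT stressed library B or without a variance trend. Their median log2 difference was 0.77 in KO and 0.44 in WT HSCs, against 0.00 and 0.01 over all genes. Averaged over genotypes Cdk2, Ccne1 and Ccne2, which act at the G1 to S transition, also passed, with log2 differences of 0.28 (limma adjusted p = 0.013), 0.72 (0.029) and 0.64 (0.046), which made 7 of 10, where 8.29% of all genes were called. That count was 5 or 6 with any single library left out, and 5 without a variance trend or with a replicate block. Ccne2 was 0.88 without WT stressed library A (limma adjusted p = 0.0045) and 0.40 without library B (0.13), and in WT HSCs alone 0.80 and -0.15. Ccne1 was 0.55 without WT stressed library A (adjusted p = 0.11) and Cdk2 0.26 without KO stressed library B (0.064). Ccna2, cyclin A2 of S phase and G2, had 147.5 and 148 CPM in KO stressed, 104 and 141.5 in WT stressed, 56.3, 66.0 and 68.1 in KO normal, and 62.9, 76.4 and 62.2 CPM in WT normal libraries. Stressed and normal libraries of Ccna2 were apart in both genotypes.

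Cdkn1c encodes p57, the third CIP/KIP inhibitor and a mark of quiescent mouse HSCs. It had 16.4 and 13.5 CPM in KO stressed, 14.2 and 14.9 in WT stressed, 30.0, 25.1 and 27.5 in KO normal, and 26.3, 30.3 and 33.4 CPM in WT normal libraries. All 4 stressed libraries were below all 6 normal ones. Cdkn1c fell by 0.88 on the log2 scale in KO (SE 0.17, limma adjusted p = 0.014) and by 1.04 in WT HSCs (SE 0.17, adjusted p = 0.0076), unlike Cdkn2c, which was higher in the stressed libraries. The KO call was lost with a replicate block (-0.84, limma adjusted p = 0.054) and with only the compared groups fitted (-0.88, 0.076). It was also lost without KO stressed library B (-0.74), and the WT call without WT stressed library A (-0.999). Averaged over genotypes it fell by 0.96 (limma adjusted p = 0.00054), and this call held in all alternatives run. Cdkn1c was the single tested gene of 3 other CDK inhibitors listed, and Cdkn2a and Cdkn2b were not analysed here.

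Of 16 genes of pocket proteins other than Rb1, of E2F and DP factors and of the LIN proteins that bind them, 4 rose and none fell in KO stressed HSCs, and 2 rose and 1 fell in WT stressed HSCs, where 4.5% and 3.3% of all genes were called. In KO HSCs these were E2f2 (1.29), E2f8 (1.18), E2f7 (0.99) and Tfdp1 (0.41), with limma adjusted p of 0.0014 to 0.035. In WT HSCs E2f7 (0.79) and Rbl1 (0.50), which encodes p107, were higher, and Rbl2, which encodes the p130 pocket protein of resting cells, was lower (-0.42, limma adjusted p = 0.018). The list's median log2 difference was 0.26 in KO and 0.09 in WT HSCs. The KO count was 1 without KO stressed library B and 2 without KO stressed library A, KO normal library A or KO normal library B. The WT count was 0 without WT stressed library A or B or WT normal library B or C, and 1 without WT normal library A. Without a variance trend the counts were 2 and 0, and with a replicate block 3 and 1.

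Of 16 tested regulators of the turnover or activation of G1 proteins, 1 rose in KO stressed HSCs, Cdc25b (0.82, limma adjusted p = 0.029), and 1 in WT stressed HSCs, Cks1b (0.63, adjusted p = 0.011), a cofactor in the degradation of p27, where 4.5% and 3.3% of all genes were called. In normal HSCs, KO exceeded WT in 2 of the 16, Skp1a (0.24, adjusted p = 0.015) and Usp2 (1.19, adjusted p = 0.044), a deubiquitinase described for cyclin D1, where 1.56% of all genes were called. Of 15 tested p53 pathway genes other than Cdkn1a, none rose and 1 fell in KO stressed HSCs, Ccng1 (-0.49, adjusted p = 0.014), again beside 4.5% of all genes, and the list's median log2 difference was 0.00 in KO and -0.06 in WT HSCs. Of 11 tested growth factor and FOXO inputs to cyclin D and p27, 1 fell in KO stressed HSCs, Mycn (-0.32, adjusted p = 0.010), and Myc was lower in KO than in WT HSCs averaged over conditions (-0.18, SE 0.038, adjusted p = 0.045, where 1.07% of all genes were called). With 1 gene of 16, 15 and 11 called in KO HSCs, these shares were near that of all genes. All 3 of these counts were 0 without KO stressed library A, without KO stressed library B or without a variance trend. The turnover count was also 0 in KO HSCs without KO normal library C, and in WT HSCs it was 0 without WT stressed library A and 2 without KO normal library A.

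Of 20 proliferation and S phase genes, 13 rose in KO and 7 in WT stressed HSCs with none lower, where 4.5% and 3.3% of all genes were called. Their median log2 differences were 0.38 and 0.31. The KO count was 6 without KO stressed library A, 7 without library B, 8 without a variance trend and 9 with a replicate block, and the WT count 6 or 7 with any single library left out. For the interaction, 0 of these 20 genes passed, as did 0 of the 10 cyclin and CDK genes and 0 of the 16 pocket protein and E2F genes. Over all genes, 0.0198% were called there. Whether a list as a whole differed between genotypes was not tested.

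**Figure D5:**
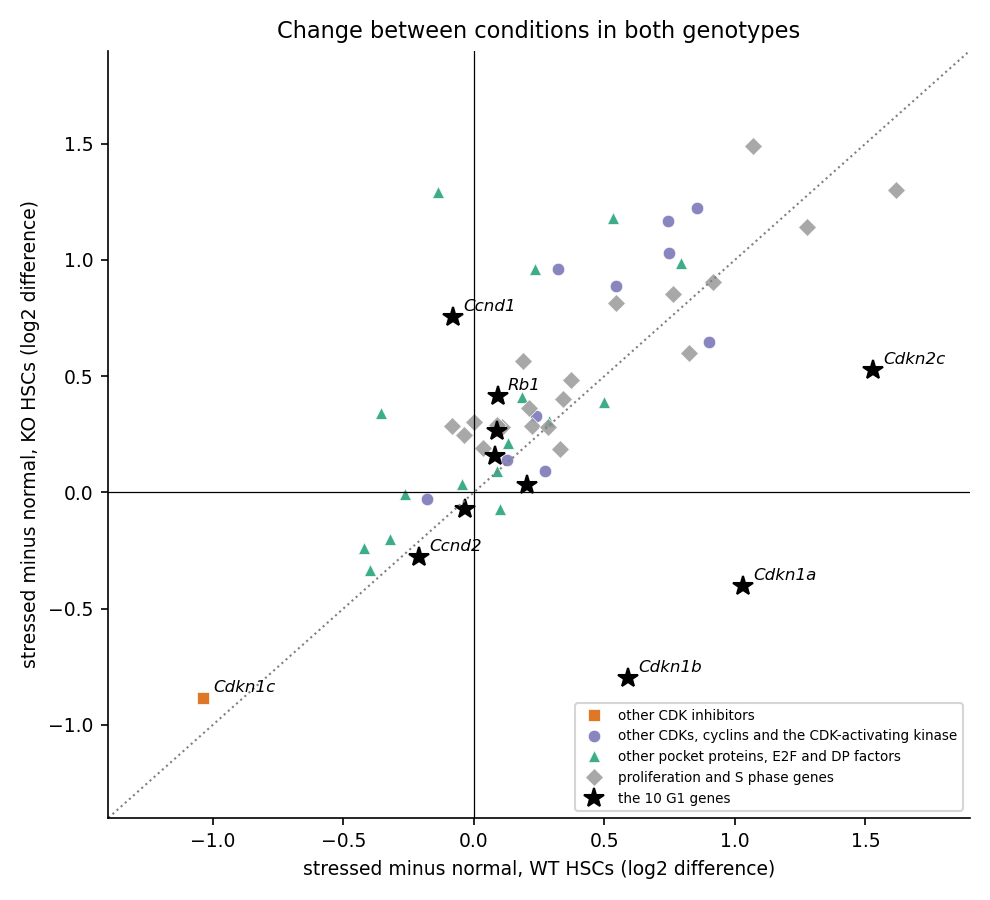
Log2 difference of stressed minus normal HSCs in WT (horizontal) and KO (vertical) HSCs for the 10 G1 genes (stars) and for every tested gene of 4 lists of cell cycle genes, with equal change on the dotted line. Most genes of the cyclin and CDK list and of the S phase list lie at or above 0 on both axes. In the pocket protein and E2F list, 11 of 16 genes are positive in KO and 9 in WT. Cdkn1c lies low on both axes (-0.88 in KO, -1.04 in WT). Cdkn1b (-0.80, 0.59) and Cdkn1a (-0.40, 1.03) lie right of 0 and below it, and Ccnd1 (0.75, -0.08) above 0 and near it.

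Markers of cell types moved with the same groups. Of the 11 HSC markers, 5 fell and none rose between conditions in each genotype, and Kit was lower in KO than in WT normal HSCs. Of 6 tested megakaryocyte markers, 4 rose in KO and 3 in WT stressed HSCs, and their sum was 1370 CPM in both KO stressed, 1290 and 1310 in WT stressed, 785 to 825 in KO normal and 884 to 912 CPM in WT normal libraries, with none of those in the table at 0. The 8 B and plasma cell markers in the table summed to 215 and 216 CPM in KO stressed libraries, with Igkc and Jchain called higher, and to 48.1 to 61.8 CPM elsewhere. T and NK cell markers summed to 98.1 to 123 CPM in stressed and 61.6 to 69.3 CPM in normal libraries, with Trbc2 at 0 reads in the stressed groups. Of the 3 tested, 1 (Nkg7) was called higher in both genotypes and the others were negative, with a median log2 difference of -0.61 in KO and -1.64 in WT HSCs. Granulocyte and monocyte markers summed to 117 to 127 CPM in KO stressed, 104 to 106 in WT stressed, 136 to 141 in KO normal and 97.1 to 100 CPM in WT normal libraries. Of 11 tested, S100a8 (-3.94) and S100a9 (-3.23) fell in KO stressed HSCs (limma adjusted p = 0.031 and 0.0071), none passed in WT stressed HSCs, and Mpo was 2.28 higher on the log2 scale in KO than in WT normal HSCs (0.0091). Erythroid markers summed to 1650 to 1660 CPM in KO stressed, 1680 to 1690 in WT stressed, 1730 to 1820 in KO normal and 1820 to 1830 CPM in WT normal libraries, with none at 0. Of 10 tested, Car1 fell (-0.79) and Gata1 rose (0.58) in KO stressed HSCs (limma adjusted p = 0.0012 and 0.017), and Car1 (-1.23), Hbb-bt (-1.15) and Hba-a1 (-2.30) fell in WT stressed HSCs (8e-05, 0.016 and 0.017). The part of these shifts in the levels of Cdkn1b, Cdkn2c, Ccnd2 and the other genes above was not tested.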

How the data were processed

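Transcripts were measured by RNA sequencing in 10 HSC libraries. Per the submitters' processing notes, reads were aligned with Bowtie2 to mm10 and counted with featureCounts, with no versions given. The deposited values are log2 CPM of 20270 genes, and limma voom is named by the authors only in the table's name. All libraries share the same set of values from -5.90 (0 reads) upward, as quantile normalization gives. Depth was estimated from the steps between low tied values (10 to 100 reads).

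Genes above a value of 0 in at least 2 libraries were kept (15143). In limma 3.58.1 (R 4.3.3) the 4 group means were estimated together from all libraries, with variances moderated along the mean level and 6 residual degrees of freedom, and tested in 7 contrasts. P-values were adjusted by Benjamini-Hochberg over all genes tested and called under 0.05. CPM per kb divides by the exon length in GENCODE vM21, which matched 20199 genes, and promoter windows come from RefSeq (GRCm38.p6). The model was tested on simulated data. Plots were drawn with matplotlib 3.10.9 in Python 3.11.15.

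The members and lists were chosen with earlier results of these data known. Text names all members, the called genes and up to 3 genes per list, and the genes most correlated with each member. Alternatives covered filter, scaling, pseudocount, moderation, library weights, gene length, replicate block, threshold and libraries left out.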

Additional observations from a re-analysis of the deposited data

Results flagged for a closer look

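Cdkn1b, the gene of p27, was lower in both KO stressed libraries than in all 3 KO normal libraries and higher in both WT stressed libraries than in all 3 WT normal libraries. The difference of the stress change between KO and WT HSCs was -1.39 on the log2 scale, and its test did not pass after adjustment over all genes (limma adjusted p = 0.18, and 0.14 to 0.36 over 19 alternatives). The same opposite separation occurred in 416 of 15143 genes. With 2 or 3 libraries per group, no library could be assessed as an outlier within its group.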

How the results depend on the processing

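Alternatives were followed for 32 differences of G1 genes. These had an unadjusted limma p under 0.10 in the main fit, apart from a few added for Cdkn1a and Rb1. None of the 32 reversed its sign in any alternative run, and 594 of 625 values kept their side of the threshold. The other differences of G1 genes, mostly nearer 0, were not followed. For stressed against normal in KO HSCs, 2 G1 genes were called. The count was 0 without a variance trend or with only the compared groups fitted, 1 without a filter or with a replicate block, 4 at an adjusted p under 0.10, and 0 to 2 with single libraries left out. In WT HSCs, 1 was called, with 0 without a trend or with only the compared groups fitted, 2 at 0.10, and 0 to 2 with single libraries left out. Averaged over genotypes, 2 were called, with 1 without a trend and 4 at 0.10.

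The labels do not say whether replicate letters pair the libraries, and correlations of the deviations from group means showed no strong pairing. Deviations of 13 same-letter pairs correlated at -0.028 to 0.031 (median 0.01), and of 24 other pairs at -0.033 to 0.028. In the stressed groups, with 2 libraries each, the deviations mirror each other. These pairs are therefore not independent, and only a strong shared effect could show. With a replicate block the Cdkn1b difference in KO HSCs was -0.82 (limma adjusted p = 0.061), Ccnd2 in KO HSCs (adjusted p = 0.023) and Cdkn2c in WT HSCs (0.033) stayed called, and over all genes 447 were called in KO and 289 in WT HSCs, against 682 and 500 without it.

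Over all genes, calls between genotypes in normal HSCs numbered 236, with 45 without a trend, 129 with the gene length trend removed, 133 with only the compared groups and 129 to 238 with single libraries left out. In stressed HSCs they numbered 22, with 0 with only the compared groups, 11 with a replicate block and 12 to 51 with single libraries left out (51 and 47 without WT stressed library A and B). Calls between conditions numbered 682 in KO (249 to 727, and 278 to 681 with single libraries left out) and 500 in WT HSCs (256 to 544, and 251 to 612). The interaction gave 3 calls (2 to 15, and 1 to 26 with single libraries left out). The causes were not tested. With 2 stressed libraries per genotype, leaving out either leaves a lone library assumed to vary like the others.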

Other observations

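Within the proliferation list, the mitosis genes Aurka, Plk1 and Birc5 were called higher in stressed HSCs of both genotypes. Bub1, another mitosis gene, passed in KO (0.81) and not in WT HSCs (0.54). Of the replication licensing genes, 3 passed the test in KO HSCs, Mcm7, Mcm2 and Mcm3. Mcm4, Mcm5, Mcm6, Cdc6, Cdt1 and Gmnn did not pass there. Aurka, a mitotic kinase, rose by 1.49 on the log2 scale in KO and 1.07 in WT stressed HSCs, Plk1 by 1.301 and 1.62, and the chromosomal passenger gene Birc5 by 1.14 and 1.28 (limma adjusted p of 0.00024 to 0.0039 for these 6 differences). The helicase genes Mcm7, Mcm2 and Mcm3 rose by 0.36, 0.28 and 0.25 in KO stressed HSCs (limma adjusted p of 0.020, 0.026 and 0.031). In WT stressed HSCs none of these 3 passed, with Mcm7 at 0.21, Mcm2 at -0.08 and Mcm3 at -0.04. Mcm2 had 541 and 520 CPM in KO stressed, 453, 417 and 437 in KO normal, and 532, 503 and 506 CPM in WT normal libraries. Mcm3 had 542 and 536.5, then 430, 463 and 471, then 545.5, 500 and 497 CPM in the same groups. For Mcm2 and Mcm3, KO normal libraries were thus below all others, and KO stressed overlapped WT normal libraries. The interaction did not pass for Mcm7, Mcm2 or Mcm3 (limma adjusted p = 0.70, 0.23 and 0.31). Mki67, a mark of cycling cells, had 284 and 254 CPM in KO stressed, 281 and 252 in WT stressed, 174.5, 127.5 and 147 in KO normal, and 171, 147 and 153 CPM in WT normal libraries, so all 4 stressed libraries were above all 6 normal ones.

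Ccne2, cyclin E2, had 45.6 and 46.3 CPM in KO stressed, 18.8 and 36.5 in WT stressed, 20.9, 22.3 and 28.15 in KO normal, and 18.9, 20.7 and 23.4 CPM in WT normal libraries. WT stressed library A was the lowest of the 10, apart from its group mate. Hsp90ab1, a chaperone that folds CDK4, was higher in stressed HSCs by 0.08 averaged over genotypes (SE 0.020, limma adjusted p = 0.025).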
